A study of Homo sapiens with 38 samples.

Results

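The effect of 30 days with NCD38-β2P4 on RNA was read from 2 libraries of RKO, an established line of human colorectal carcinoma cells. Of the 38 samples of the series, 8 were RNA libraries and 30 were ChIP-seq samples, and the 2 libraries were taken by their labels: RKO treated with 2 µM NCD38-β2P4 in 0.1% DMSO, and RKO kept in 0.1% DMSO alone, both harvested on day 30. The medium of both was refreshed every 5 days. Each condition had 1 library, so no difference below carries a test between conditions, and a ratio compares these libraries only. Genes were followed when their name occurred once in the table of 25594 entries and their mean FPKM (an expression level: fragments scaled by transcript length and by the mapped total of the library) over the 8 RNA libraries was at least 1, or when a gene below that mean reached FPKM 1 with NCD38-β2P4 on day 30. This gave 11407 of 25504 genes, of which 10865 were expressed by the mean and 542 were low genes. Among the expressed genes, 322 short RNAs and 39 loci that read through from a gene into its neighbour were set apart, which left 10504 genes.

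Lysine-specific demethylase 1 (LSD1, encoded by KDM1A) removes methyl groups from mono- and dimethylated lysine 4 of histone H3 and acts in repressive complexes with CoREST and histone deacetylases. NCD38 inactivates LSD1. In NCD38-β2P4 it is joined through a β-alanine dipeptide to 4 pyrroles, a polyamide that lies in the minor groove of DNA and recognizes 6 A or T bases in a row. The sister compound NCD38-β2PIPP has an imidazole in the place of a pyrrole and recognizes a CG inside A/T bases. The comparison asks which RNAs differ between cells given this conjugate and cells given DMSO alone. It does not separate the part of the inhibitor from that of the polyamide.

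The FPKM table holds no fragment counts. From the value at which FPKM of single fragments piled up, depth was estimated as 12500000 fragments with NCD38-β2P4 and 18300000 with DMSO on day 30, and 12700000 to 22900000 in the other 6 libraries. A 95% counting half-width was derived from it for the log2 ratio without a pseudocount. It covers counting error only and says nothing of the spread between cultures. The epithelial keratins KRT8 and KRT18 and the intestinal factor CDX2 were present at FPKM 19.0, 117 and 8.16 with NCD38-β2P4, against 15.4, 121 and 9.18 with DMSO, and EPCAM at 6.30 against 3.94. Other colon markers were absent or nearly so: KRT20 and VIL1 were listed at 0 in all 8 libraries, and CDH1 and KRT19 at 0 with DMSO on day 30. Markers of leukocytes (PTPRC, CD3E) and endothelium (PECAM1, CDH5) were listed at 0 in all 8 libraries, and so was DCN of fibroblasts, while the fibroblast collagen COL1A1 was at 0.0129 with NCD38-β2P4 and 0 with DMSO.

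Expression with NCD38-β2P4 lay close to that with DMSO. Across the 10504 genes the median log2 ratio of FPKM + 1 was 0.07, and the central 95% of the ratios ran from -0.32 to 0.48. A ratio above 0 was found for 6627 genes (63.1%). At least 2-fold differences were seen for 8 genes on the higher side (0.0762%) and 8 on the lower side (0.0762%), and at least 1.5-fold differences for 97 (0.923%) and 41 (0.39%) genes. The GC content of the transcript was known for 9874 of these genes, of which 80 were at least 1.5-fold higher and 22 lower. After the trend of the ratio with GC content was subtracted, 26 of the 9874 genes were at least 1.5-fold higher and 25 lower. Of the genes past 2-fold, 2 higher and 5 lower ones had a name that matched the GENCODE annotation; the rest were entries with LOC names and no match, whose length and exons were not used here. The range widened at low levels: the central 95% was -0.37 to 0.50 for genes with a mean FPKM of 1 to 3 over both libraries, and -0.28 to 0.35 for those at 100 or more.

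**Figure D1:**
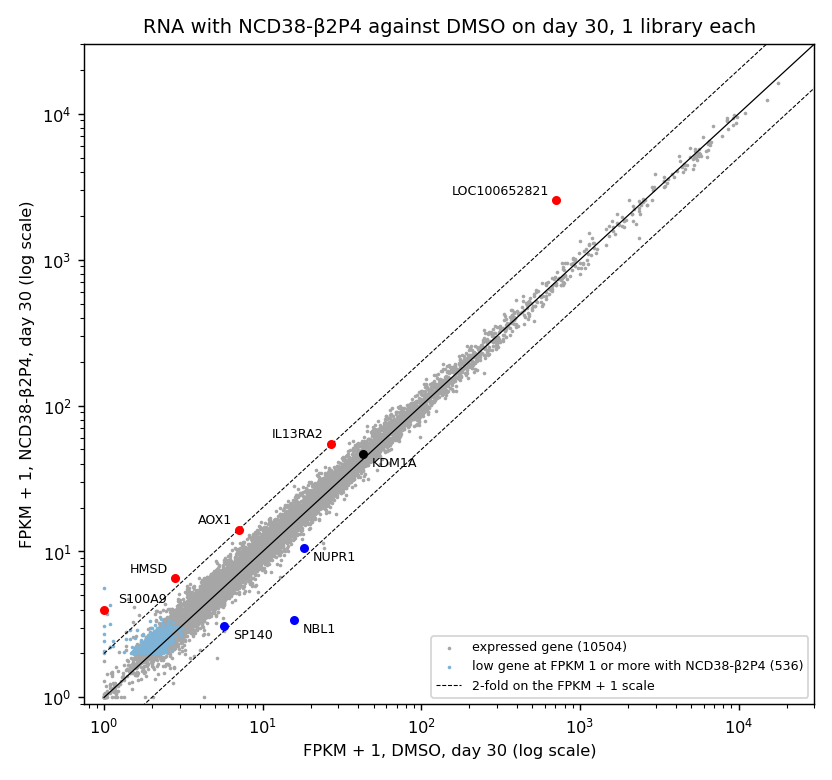
FPKM + 1 of each gene with DMSO (x axis) and with NCD38-β2P4 (y axis) on day 30, both on log scales, with 1 library each. Grey points are the 10504 expressed genes and blue points 536 low genes outside the short RNA and read-through classes. Few points lie beyond the dashed 2-fold lines; red, blue and black labels mark genes described in the text.

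Among the annotated genes, the decoy receptor of interleukin-13, IL13RA2, was 2-fold higher. It lies on chromosome X at 114238538 to 114254540 (GRCh37, minus strand). Its FPKM was 53.7 with NCD38-β2P4 and 25.9 with DMSO, while NCD38 gave 35.1 and NCD38-β2PIPP 38.8. This is a log2 ratio of 1.02 (half-width 0.15), and of 0.81 after the GC trend was subtracted. On day 4 its FPKM was 5.15 with the conjugate and 4.80 with DMSO, and all 4 values of that day (2.69 to 5.22) lay below the lowest of day 30.

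Aldehyde oxidase AOX1 was at FPKM 13.1 with NCD38-β2P4 and 6.11 with DMSO, a log2 ratio of 0.99 with a half-width of 0.16. With NCD38 it was at 11.1 and with NCD38-β2PIPP at 8.48, so the conjugate library was the highest of the 4. On day 4 the pair also differed in this direction, at 5.89 against 3.38. HMSD, a serpin-domain gene known for a minor histocompatibility antigen, was at 5.59 against 1.79 with DMSO, a log2 ratio of 1.24. Here the DMSO library of day 30 was the low one: the other 7 libraries held 4.47 to 6.36. SERPINB1, an inhibitor of neutrophil serine proteases, was at 28.8 against 18.6 with DMSO, a log2 ratio of 0.61 with a half-width of 0.14. After the GC trend was subtracted, the ratio of SERPINB1 was 0.45 and not past 1.5-fold. NCD38 at 16.6 and NCD38-β2PIPP at 21.4 stood below the conjugate, and the day 4 pair was at 20.3 and 18.6.

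Other genes at least 1.5-fold higher were picked for description after their values were seen. HAT1, which acetylates newly made histone H4, was at FPKM 27.3 with NCD38-β2P4 and 14.7 with DMSO (log2 ratio 0.85, half-width 0.18). HELLS, a chromatin remodeler needed for DNA methylation, was at 7.64 against 4.04, and the nucleosome-binding protein HMGN2 at 71.2 against 44.7. The transferrin receptor TFRC was at 10.5 against 6.22. FANCL, a ubiquitin ligase of crosslink repair, was at 9.19 against 5.44. PRIM1, the catalytic subunit of primase, was at 8.64 against 5.19. After the GC trend was subtracted, HAT1 stayed past 1.5-fold with a ratio of 0.61. HELLS (0.576), HMGN2 (0.51), TFRC (0.47), FANCL (0.44) and PRIM1 (0.42) did not. With NCD38, the levels of HMGN2 (71.9) and FANCL (7.86) also exceeded those with DMSO, while HELLS was at 3.91. The 97 genes were thus mostly small differences in genes of ordinary level, with HMSD, IL13RA2 and AOX1 as the annotated genes of highest ratio.

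Several of the 12 highest ratios belonged to entries with LOC names. LOC100652821 was at FPKM 2557 with NCD38-β2P4 and 708 with DMSO, 1856 with NCD38-β2PIPP and 686 with NCD38. Its log2 ratio of 1.85 on day 30 stood against -1.73 on day 4, where the levels were 405 and 1350. LOC100652983 was at 3.76 against 0.41 with DMSO and at 17.3 with NCD38. The histone gene HIST1H2AM, at 3.38 against 1.42, and the pseudogene HMGN2P46, at 2.92 against 1.13, completed the named part of the 12 and both had a transcript under 500 nt. Such entries can share reads with copies elsewhere, so how their reads were assigned bears on their FPKM.

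On the lower side, NBL1 showed the largest difference. This secreted antagonist of bone morphogenetic proteins was at FPKM 2.40 with NCD38-β2P4 and 14.7 with DMSO, a log2 ratio of -2.20 with a half-width of 0.38. The values with NCD38 (8.03) and NCD38-β2PIPP (10.4) lay between them. On day 4 the pair was at 93.1 and 77.5, in the opposite order and at a far higher level than any library of day 30. SP140, a chromatin reader of immune cells, was at 2.09 against 4.74 (log2 ratio -0.89) and at 2.19 with NCD38. The stress protein NUPR1 was at 9.48 against 17.2 (log2 ratio -0.80, half-width 0.13), and NCD38 held an even lower level of 4.86. Among genes chosen after their values were seen, ID1, an inhibitor of helix-loop-helix factors, was at 7.07 against 11.8, but at 20.4 with NCD38. MUC1, a membrane mucin, was at 0.97 against 2.24, and the noncoding RNA SFTA1P at 59.9 against 97.5.

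3 further genes among the 12 lowest share their name with a read-through locus that differed the other way. PLSCR3, a phospholipid scramblase, was at FPKM 10.4 with NCD38-β2P4 and 23.1 with DMSO, while C17orf61-PLSCR3 was at 16.1 against 5.88. Their sum was 26.4 against 29.0, a log2 ratio of -0.13. BSCL2, the seipin of lipid droplets, was at 5.67 against 11.8 and HNRNPUL2-BSCL2 at 5.55 against 2.69, with a sum of 11.2 against 14.5 (log2 ratio -0.34). BGLAP, which encodes osteocalcin, was at 1.84 against 4.73 and PMF1-BGLAP at 0.852 against a value listed near 0, with a sum of 2.69 against 4.73 (log2 ratio -0.63). The sums of PLSCR3 and BSCL2 were less than 1.5-fold apart, and that of BGLAP was not past 2-fold. The read-through loci themselves were spread: 7 of 39 were at least 1.5-fold higher and 1 lower, against 0.923% and 0.39% of the 10504 genes. MUTED-TXNDC5 had the highest ratio of these loci, at 2.56 against 0.00371, while TXNDC5 alone was at 66.4 and 68.3. TGIF2-C20ORF24 had the lowest, at 3.21 against 8.99, while C20orf24 was at 83.6 and 58.8.

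A separate set of genes was close to 0 with DMSO and present with NCD38-β2P4. On day 30, 14 genes outside the short RNA and read-through classes were under FPKM 0.2 with DMSO and at 1 or more with the conjugate, against 3 in the reverse direction. The same limits gave 5 genes and 5 in reverse for NCD38, 4 and 6 for NCD38-β2PIPP, and 5 and 13 for the conjugate on day 4 against its own DMSO library. By the naming rule the 5 low genes of highest FPKM were LOC100652786, KRT81, S100A9, AKR1B1 and ATG4C. The hair keratin KRT81 was at FPKM 3.27 with NCD38-β2P4 (an estimated 79.0 fragments), 0.089 with DMSO, 0.563 with NCD38 and 0.141 with NCD38-β2PIPP, and at most 0.0776 on day 4. S100A9, a subunit of the calcium-binding alarmin calprotectin, was at 2.96 (21.3 fragments), listed at 0 with DMSO, and at 0.44 with NCD38. Aldose reductase AKR1B1 was at 2.72 (46.5 fragments) against 0.0424 with DMSO and 0.552 with NCD38. The autophagy protease ATG4C, at 2.42 against 1.30, was low for its day 4 values of 0.17 to 0.80 and not for its level with DMSO. LOC100652786 was at 4.59 against a value near 0, and at 1.93 with NCD38-β2PIPP.

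The stretch of 250 bases before the transcription start is shown for S100A9, AKR1B1 and THBS1, because runs of at least 6 A or T bases are what the polyamide part recognizes, and for SERPINB1, whose stretch has none. The sequences are from RefSeq on GRCh38.p14, 5′ to 3′ on the strand of the gene, with such runs in capitals. They lie at chr1:153357604-153357853 (plus strand), chr7:134459101-134459350 (minus strand), chr15:39580829-39581078 (plus strand) and chr6:2841864-2842113 (minus strand). For AKR1B1 the table lists more than 1 start, and the first listed was taken. The study placed the gain of histone acetylation at SERPINB1 at an enhancer, whose sequence was not examined here.
S100A9: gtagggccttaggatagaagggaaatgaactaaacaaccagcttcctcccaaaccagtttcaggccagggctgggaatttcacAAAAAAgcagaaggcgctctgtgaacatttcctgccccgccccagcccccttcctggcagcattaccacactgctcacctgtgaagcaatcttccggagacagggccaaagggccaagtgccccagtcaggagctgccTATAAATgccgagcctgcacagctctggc
AKR1B1: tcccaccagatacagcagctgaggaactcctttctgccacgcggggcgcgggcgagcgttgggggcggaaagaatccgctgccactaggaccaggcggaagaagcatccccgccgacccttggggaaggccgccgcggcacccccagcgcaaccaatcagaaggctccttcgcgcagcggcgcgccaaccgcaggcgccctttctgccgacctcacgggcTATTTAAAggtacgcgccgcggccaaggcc
THBS1: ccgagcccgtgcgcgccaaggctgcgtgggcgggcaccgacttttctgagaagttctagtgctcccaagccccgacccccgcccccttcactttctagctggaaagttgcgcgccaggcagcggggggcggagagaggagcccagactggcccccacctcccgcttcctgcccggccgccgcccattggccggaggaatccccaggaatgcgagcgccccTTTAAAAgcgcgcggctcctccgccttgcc
SERPINB1: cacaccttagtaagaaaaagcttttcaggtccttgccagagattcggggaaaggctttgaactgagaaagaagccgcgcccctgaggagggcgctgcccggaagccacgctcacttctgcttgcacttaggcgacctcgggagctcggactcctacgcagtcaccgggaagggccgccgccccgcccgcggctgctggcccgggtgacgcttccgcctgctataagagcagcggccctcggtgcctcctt
The run nearest to the start began 29 bases before it in S100A9, and 30 bases before it in AKR1B1 and THBS1. The genes shown are examples only. ID1, which was lower with NCD38-β2P4, held a run of 9 bases that began 33 bases before the start. AOX1, which was higher, held none. Such runs are common: either strand counts alike, and 59.6% of the 27305 promoters in the table held at least 1 in these 250 bases, while 16.5% held a run that began 20 to 40 bases before the start. Of the 61 genes described next, 35 had a promoter in the table and 22 of these (62.9%) held a run. Of the 10504 expressed genes, 8036 had one (76.5%), and 43.4% of these held a run. Their median log2 ratio was 0.08 with a run and 0.06 without, and -0.001 and 0.001 after the GC trend was subtracted. Among genes at least 1.5-fold higher, 63 had a promoter and 54.0% of these held a run. Among those at least 1.5-fold lower, 18 had one and 50% of these held a run. The matches are all under 80%, so these values describe the matched genes only.

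Looser limits, set after the values were seen, described the set further. In all, 61 genes were at FPKM 0.3 or more with NCD38-β2P4 on day 30 and under 0.2 in every library other than this and NCD38 on day 30. Their FPKM summed to 41.3 with NCD38-β2P4, 7.77 with NCD38, 3.34 with NCD38-β2PIPP and 2.52 with DMSO on day 30, and to 0.578 to 1.28 in the 4 libraries of day 4. The genes were chosen for a high value with NCD38-β2P4 and low values elsewhere, with no limit for NCD38 on day 30. A lower level with NCD38 than with the conjugate is favoured by that choice, and these sums are a description only. In the NCD38 library 19 of the 61 were listed at 0. Others were higher there than with the conjugate: MYH15 by 1.29 times, LOC692247 by 1.27 times and LOC100652930 by 1.17 times.

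The members of this set have varied known roles. Caspase-1 (CASP1), which cleaves interleukin-1β, was at FPKM 1.07 with NCD38-β2P4 and listed at 0 in the other libraries of day 30. Serum amyloid A1 (SAA1), an acute-phase protein, was at 1.01 against 0 with DMSO and 0.0836 with NCD38, on an estimated 6.58 fragments. Complement C3 was at 0.756 against 0.0414 with DMSO. Thrombospondin-1 (THBS1), a matrix glycoprotein, was at 0.795 (77.6 fragments) against 0.00906 with DMSO and 0.148 with NCD38. Keratins KRT7 and KRT19 of simple epithelia were at 0.740 and 0.467. The noncoding RNA UCA1 was at 2.20 against 0.0837. SPANXC, of a testis-expressed family of near-identical copies, was at 1.74 against 0, and SPANXB1 and SPANXB2 had the same value of 1.22, so reads of these copies cannot be told apart. In bulk RNA a few cells with much of a transcript and many cells with little cannot be told apart, and the part that other cells or handling may have in these low values was not tested.

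**Figure D2:**
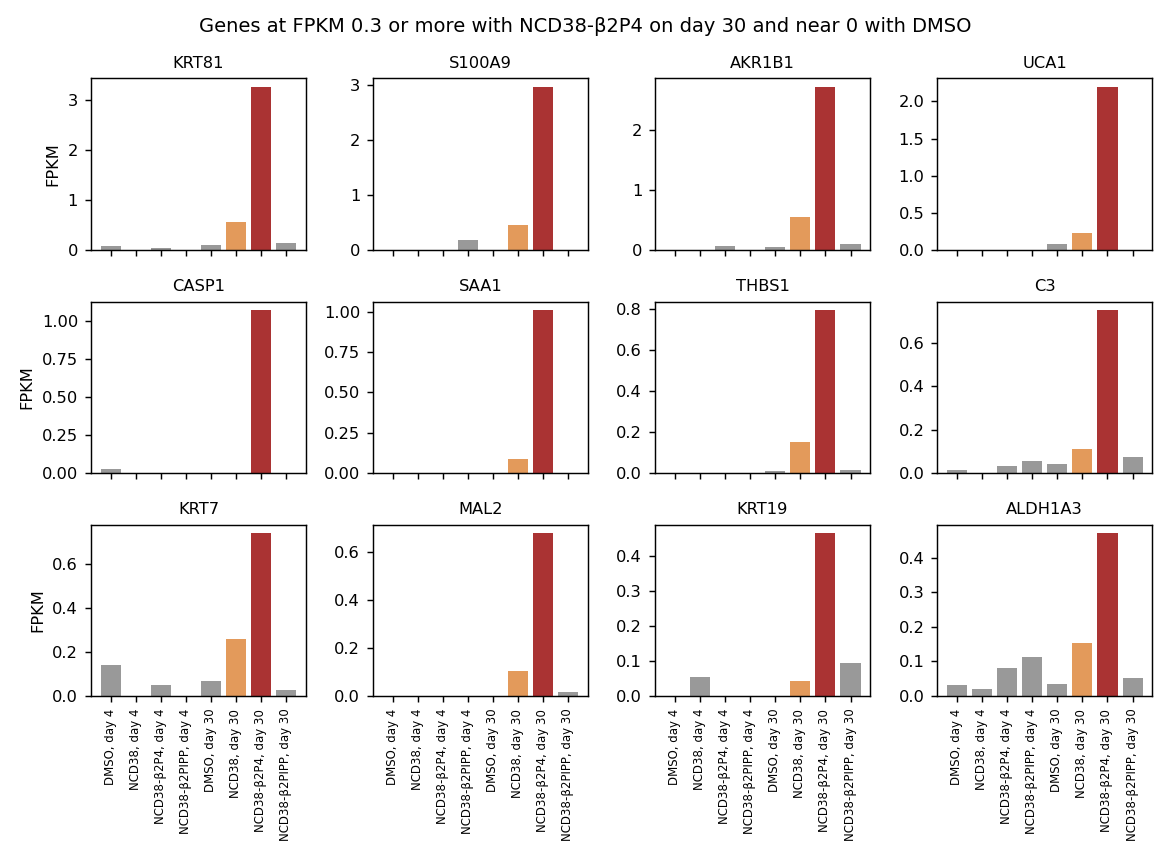
FPKM (y axis, a scale of its own in each panel) of 12 of the 61 genes in the 8 libraries, with 1 bar per library. The 61 genes were chosen to be high with NCD38-β2P4 on day 30 (dark red) and low in all libraries except NCD38 on day 30 (orange). The dark red bar thus exceeds the grey bars by that choice. The 12 were picked after their values were seen, and in them the orange bar is lower or absent. MYH15, LOC692247 and LOC100652930, which were higher with NCD38, are not shown.

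The count of genes seen in a single library was highest for the conjugate. At FPKM 0.3 or more there and under 0.2 in each of the other libraries, 49 genes were found with NCD38-β2P4 on day 30. The other 7 libraries had 8 to 22 such genes. Genes counted this way can be present below the limit elsewhere: PMEPA1 was at 0.326 with NCD38-β2P4 and 0.153 with DMSO on day 30. SPANXB1 and SPANXB2, with the same values, were counted apart. The NCD38-β2P4 library also had the lowest estimated depth of the 8, and the part of depth in this count was not tested. In that library 45 of the 49 genes matched the annotation, and the matched genes of the others numbered 3 to 13.

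The members of the gene lists that were below a mean FPKM of 1 were counted as well. Of all 13017 genes below this mean, 3179 (24.4%) had a higher FPKM with NCD38-β2P4 than with DMSO and 2220 (17.1%) a lower one. The rest were equal, mostly at 0. All 21 lists with such members were counted: 16 had more higher than lower members, 4 as many of each, and 1, hypoxia and glycolysis, had more lower ones. Of 264 zinc finger genes 136 were higher and 57 lower, so most lists leaned to the higher side. The lists with no lower member and over 10 members are given here, with the inflammatory genes. Of the 23 epithelial and mesenchymal genes below the mean, 17 were higher, none lower and 6 at 0 in both. Their summed FPKM was 6.76 against 3.32, beside 4.37 with NCD38 and 4.73 with NCD38-β2PIPP. Within it KRT7 and KRT19 were the largest differences, and the junction protein CDH1 was at 0.0642 against 0. Of 19 interferon-response genes below the mean, 14 were higher, none lower and 5 at 0 in both. Their sum was 3.92 against 2.10, beside 2.49 with NCD38 and 2.34 with NCD38-β2PIPP. The antiviral IFIT1 was at 0.357 against 0.0611 there, and IFIT2 at 0.247 against 0.0461. Of 19 inflammatory genes, 10 were higher, 2 lower and 7 at 0 in both. Their summed FPKM was 4.22 against 2.60, beside 1.79 with NCD38 and 3.92 with NCD38-β2PIPP. The neutrophil chemokine IL8 was at 1.03 against 0.607, IL6 at 0.226 (3.20 fragments) against 0 and the T-cell chemokine CCL5 at 0.360 (5.87 fragments) against 0, while TNF, IL1B and CCL2 were at 0 in both. Most of these values rest on a handful of fragments. KRT7, KRT19, IFIT1 and CCL5 also belong to the 61 genes above, which were chosen for a high value with NCD38-β2P4.

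Among expressed genes, those of cell division stood out by number and not by size. Of 43 G2/M and mitosis genes, 40 were above 0, against 63.1% of all genes. The list had a median log2 ratio of 0.34 against 0.07 over all genes. In it 2 genes were at least 1.5-fold higher, against 0.923% of all genes. The median GC content of the list was 43.5%, and of all genes between 41.4% and 46.4% GC, 83.0% were above 0. NUSAP1, a spindle-associated protein, was at FPKM 21.2 against 13.4, and cyclin B1 (CCNB1) at 36.9 against 23.7 (log2 ratio 0.61, half-width 0.13). Neither stayed past 1.5-fold once the GC trend was subtracted, with ratios of 0.45 for NUSAP1 and 0.44 for CCNB1. KIF4A, a chromosome motor, was at 3.49 against 2.19, and topoisomerase TOP2A at 7.25 against 4.91. CDC20, the activator of the anaphase-promoting complex, had a ratio of -0.11 and was 1 of the 3 members not above 0. With NCD38 against the same DMSO library, all 43 were above 0 and the median was 0.98, and with NCD38-β2PIPP 42 were above 0 and the median was 0.32. CCNB1, at 55.2 with NCD38 and 33.7 with NCD38-β2PIPP, had that order too.

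Of 42 DNA replication genes, 41 were above 0 with NCD38-β2P4, against 63.1% of all genes, with a median of 0.24. The median GC content of the list was 47.6%, and of all genes between 46.4% and 52.7% GC, 65.8% were above 0. The list holds ORC3 of the origin recognition complex, at FPKM 13.7 against 8.59 (log2 ratio 0.62, and 0.40 after the GC trend was subtracted), and thymidylate synthase TYMS, at 28.7 against 19.0. The licensing inhibitor GMNN was at 19.4 against 12.9, and ribonucleotide reductase RRM1 at 24.7 against 16.9. PCNA, the sliding clamp, was at 190 against 137. E2F1, with a ratio of -0.03, was the member below 0. The other compounds gave lower counts for this list: with NCD38 21 of 42 were above 0 with a median of 0.01, and with NCD38-β2PIPP 33 with a median of 0.10. Over all 10504 genes, 6251 were above 0 with NCD38 (median 0.06) and 4848 with NCD38-β2PIPP (median -0.02). MCM2, a helicase subunit, was at 30.9 with NCD38-β2P4, 25.2 with DMSO and 19.7 with NCD38. These comparisons share the DMSO library, and no test between them was possible.

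Genes of the LSD1 complex were little different. KDM1A itself was at FPKM 45.6 against 42.0 (log2 ratio 0.12, half-width 0.09). Of 15 expressed members 13 were above 0, with a median of 0.12, and none was 1.5-fold apart. Over all genes 63.1% were above 0, the median was 0.07, and 0.923% were at least 1.5-fold higher. RCOR1, the CoREST scaffold, was at 5.15 against 4.06, and HMG20B, a DNA-binding subunit, at 44.4 against 52.7. Of 16 enzymes and partners that write or erase methylation of histone H3 lysine 4, 11 were above 0 and 1 was 1.5-fold higher. This was ASH2L, a core subunit of the methyltransferase complexes, at 10.5 against 6.51, with NCD38 at 4.49 and NCD38-β2PIPP at 6.20. Its log2 ratio of 0.62 became 0.53 after the GC trend was subtracted, which is not past 1.5-fold. Of 14 proteins that bind A/T-rich DNA, 12 were above 0 with a median of 0.12. DEK was the highest of them, at 26.7 against 20.2. The factors whose motifs the study took up in its peaks showed little: BACH1, a repressor of antioxidant genes, was at 3.30 against 2.66, ZBTB3 at 0.43 against 0.62 (15.8 and 33.6 fragments), and no library of the 8 had ONECUT3 above 0. Of 18 targets of BACH1 and NRF2, 10 were above 0 with a median of 0.02.

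**Figure D3:**
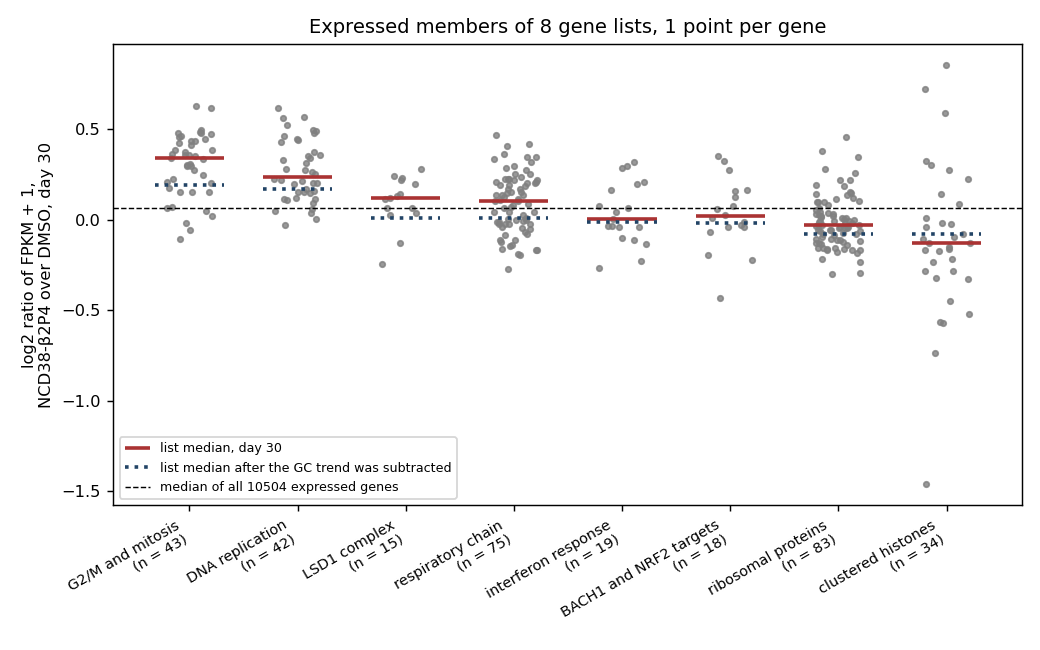
Log2 ratio of FPKM + 1 with NCD38-β2P4 over DMSO on day 30 (y axis) for the expressed members of 8 gene lists, 1 point per gene, with the list median (solid line) and the median after the trend with GC content was subtracted (dotted line). The medians of the G2/M list (0.34) and the DNA replication list (0.24) lie above the dashed line of all 10504 genes (0.07); those of the ribosomal proteins and clustered histones lie below 0.

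Ribosomal proteins leaned lower, with 34 of 83 above 0 and a median of -0.03, where all genes had 63.1% and 0.07. RPL35 was at FPKM 12301 against 15145, while RPL7 was at 3859 against 2970. Of 34 clustered histone genes, 10 were above 0 with a median of -0.13. Of the 34, 3 were at least 1.5-fold higher and 2 lower, against 0.923% and 0.39% of all genes. HIST1H4H was the lowest of the 34 at 0.86 against 4.12, and HIST1H3D was at 1.72 against 3.52. These mRNAs mostly lack a poly(A) tail, and a library of poly(A) RNA reads them poorly. Of 24 ATF4 and amino acid genes 9 were above 0, with NUPR1 1.5-fold lower, CHAC1, a glutathione-degrading enzyme, at 17.4 against 23.9, and the amino acid carrier SLC38A2 at 65.8 against 44.6. Respiratory chain genes (49 of 75 above 0, median 0.11), mitochondrial ribosomal proteins (56 of 77, 0.12), p53 targets (13 of 22, 0.04), cholesterol synthesis (17 of 27, 0.04), hypoxia and glycolysis (19 of 29, 0.11), the unfolded protein and heat shock response (15 of 22, 0.12) and zinc finger genes (183 of 269, 0.07) had few or no members past 1.5-fold.

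Over all genes the median was 0.07 and 63.1% were above 0. Expressed interferon-response genes had a median of 0.00 with 10 of 19 above 0, and expressed inflammatory genes 0.03 with 8 of 14. SOD2, a mitochondrial superoxide dismutase, was the highest of the latter at 40.3 against 28.8. MHC class I genes had a median of 0.03 with 11 of 18 above 0. There the light chain B2M was at 526 against 393, with NCD38 at 645. Genes of YAP and AP-1 had -0.01 with 13 of 28 above 0, matrix proteases 0.04 with 12 of 17, targets of the repressor REST -0.01 with 4 of 8, serpins -0.01 with 3 of 6, hosts of small nucleolar RNAs -0.04 with 6 of 14, and myeloid genes 0.05 with 2 of 3. Epithelial and mesenchymal genes had 0.18 with 7 of 11, led by the adhesion molecule EPCAM at 6.30 against 3.94. None of these lists had a member that was 1.5-fold apart, except SERPINB1 in the serpins before the GC trend was subtracted.

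The same conjugate was also applied for 4 days, with a DMSO library of that day, and the dose for that time is 2 µM in the labels, whereas the methods of the study give it in a different unit, so the dose on day 4 is uncertain. On day 4, 6927 of the 10504 genes were above 0 (65.9%), 764 were at least 1.5-fold higher (7.27%) and 107 lower (1.02%), so the spread was wider than on day 30. Of the 97 genes 1.5-fold higher on day 30, 73 were above 0 on day 4 (75.3%, against 65.9% of all genes) and 9 were again at least 1.5-fold higher (9.28%, against 7.27%). Of the 41 lower genes, 13 were below 0 (31.7%, against 34.0% of all genes) and 2 were 1.5-fold lower, PLSCR3 and LOC100293704. Across 9874 genes with a known GC content, the Spearman correlation of the day 30 ratio with the day 4 ratio was 0.33. The DMSO libraries and the conjugate libraries of the 2 days were separate, and genes are not replicates. Members of the G2/M list had a median of 0.22 on day 4 with 40 of 43 above 0, and those of DNA replication 0.10 with 28 of 42, while the median of all genes was 0.10. With the GC trend subtracted, the day 4 medians were 0.06 for G2/M and -0.05 for DNA replication.

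The ratio went with the GC content of the transcript on both days. The genes were cut into 5 groups of equal size by GC content. In the group with the lowest (30.7% to 41.3%) the median log2 ratio was 0.22 on day 30, and it was 0.15, 0.06, -0.01 and -0.07 in the next groups up to 76.0% GC. On day 4 the medians were 0.34, 0.31, 0.09, -0.01 and -0.02 in that order. With NCD38 on day 30, against the same DMSO library, they went from 0.15 to 0.01, and with NCD38-β2PIPP from 0.00 to -0.03. Over 9874 genes, which share 2 libraries a day, GC content and ratio had a Spearman correlation of -0.53 (day 30) and -0.55 (day 4). After a running median over GC content was subtracted, the correlation between the days was 0.03. Of the 97 higher genes 80 had a known GC content, and 46 of these were in the group of lowest GC content. For the 41 lower genes only 22 matched, so this check is void for them. The medians of the G2/M and DNA replication lists were 0.19 and 0.17 after the subtraction, with 37 of 43 and 38 of 42 members above 0, while that of the LSD1 complex was 0.01. Whether the GC trend comes from the libraries or from the cells was not tested.

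After the same subtraction no chromosome stood far from the rest. Over 23 chromosomes the median of the remaining ratio ran from -0.01 on chromosome 10 to 0.02 on chromosome 6.

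Short RNAs had the widest ratios, and their levels are the least certain. Of 322 expressed short RNAs, 44 were at least 2-fold higher and 45 lower (27.6% together), against 0.0762% each way in the 10504 genes. Among the short RNAs, 38 were listed at 0 only with NCD38-β2P4 and 27 only with DMSO. MIR4647 was at FPKM 139 with NCD38-β2P4 and near 0 in the other 7 libraries. SNORD68 was at 107 and SNORD28 at 91.0, both at 0 with DMSO. At the other end SNORD35A was at 0 against 109 with DMSO, SNORD32A at 0 against 87.3 and SNORD33 at 0 against 41.7. Small nucleolar RNAs of this kind guide methylation of ribosomal RNA. They are shorter than the fragments of an mRNA library, so a few fragments can give a large FPKM.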

How the data were processed

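Total RNA of RKO cells was sequenced from stranded mRNA libraries. In the methods of the study the aligner is TopHat and the estimator Cufflinks, and the authors deposited 1 table of FPKM values per gene and library, normalized by length and mapped fragments. The submitters' processing notes also name HISAT2 and hg19 without a role, and the annotation is not given in the sources used here. No read counts are held in the table, and a listed 0 can be a failed estimate. ChIP-seq data were not used here.

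Of the table, 90 entries with a repeated name were left out and the log2 ratio of the deposited FPKM + 1 was computed (Python 3.11.15, pandas 2.3.3, numpy 2.4.6). The scripts were tested on simulated data. Names were matched to GENCODE release 44 on GRCh37 for 9874 of 10504 genes (94.0%), 993 of them by a synonym, for length, GC content and position. The GC trend was a running median over 501 genes. Promoters were matched by symbol to RefSeq.

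No group had replicates, so no p-value was computed. "Called" means a ratio past 2-fold or 1.5-fold. The members, gene lists and rules were chosen with earlier results of these data known. Genes named by rule had the 12 highest or lowest ratios where both libraries averaged FPKM 1 or more, or were the 3 highest and lowest short RNAs, the 2 highest and lowest read-through loci, the 5 low genes of highest FPKM, up to 4 expressed members of each list with the largest absolute ratio, and KDM1A, SERPINB1, ZBTB3, BACH1 and ONECUT3. Every other gene in the text was chosen after its values were seen. The alternatives were 2 pseudocounts, a median scaling, 2 filters, the DMSO library of day 4, the GC trend and a minimum transcript of 500 nt.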

Additional observations from a re-analysis of the deposited data

Results flagged for a closer look

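5 named genes differed at least 1.5-fold in opposite directions from the DMSO library of the same day on day 30 and on day 4. With 1 library per condition this difference between the days was not tested. The log2 ratio of LOC100652821 was 1.85 on day 30 and -1.73 on day 4, and that of LOC100505737 was 1.13 and -1.52. HIST1H4H, a histone gene, had -1.46 on day 30 against 0.62 on day 4, and LOC100630923 had -0.94 against 0.78. The small nucleolar RNA SNORD32A had -6.47 against 1.44. The 3 LOC entries had no match in the annotation, and HIST1H4H and SNORD32A have short transcripts.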

How the results depend on the processing

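Counts past 2-fold were small and moved with most choices, while the median ratio did not. The main counts were 8 genes at least 2-fold higher and 8 lower. With a pseudocount of 0.1 they became 36 and 32, and with a pseudocount of 5 they became 1 and 1. Among genes at FPKM 1 or more in both libraries they were 3 and 4. Among transcripts of at least 500 nt they were 2 and 3. After the GC trend was subtracted they were 1 and 4, among the 9874 genes with a known GC content. Without a filter on the mean, 22 were higher. Subtracting the median of all genes gave 6 higher and 12 lower genes. Against the DMSO library of day 4, which also differs in day, the counts were 2784 and 1742. Among genes matched to GENCODE, a limit chosen after seeing the data, they were 2 and 5. With the FPKM of read-through loci added to their parts, also chosen then, they were 9 and 6. The median of all genes stayed between 0.00 and 0.08 under all 8 alternatives. No paired analysis was possible because each condition had 1 library, and for the same reason no replicate could be left out.

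With that library of day 4 as the comparator, 15 named genes changed sign: LOC100652983 (-2.48), LOC100130009 (-5.44), LOC100507474 (-0.13), HMGN2P46 (-1.31), HIST1H2AM (-0.10), HMGA1P4 (0.42), BGLAP (1.5), BSCL2 (1.93), SP140 (1.25), SNORD68 (-2.65), CCNB1 (-1.05), NUPR1 (2.04), HIST1H3D (0.28), HIST1H2BJ (-0.73) and ZNF695 (-0.42). No other alternative turned the sign of a named gene whose ratio was 1.5-fold or more. Against that library 20 of 43 G2/M genes and 18 of 42 DNA replication genes were above 0; with the median subtracted 37 and 37 were. With the median subtracted, 20 of 83 ribosomal proteins were above 0. The cause of these shifts was not tested. Depth limits the low genes most: S100A9, for one, rests on an estimated 21.3 fragments.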
